A study of Mus musculus with 9 samples.

Results

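The 99 genes described here were picked by name, from families whose members build, assemble or transport parts of axonemes, and include some forms of other motile cilia and 2 antisense transcripts. A gene was taken when its symbol began with Cfap, Dnah, Dnai, Dnal, Dnaaf, Drc, Rsph, Ift or Tekt followed by a digit and when its raw counts summed to at least 10 over the 9 libraries. All 99 such genes in the table passed that minimum, out of 25128 genes that passed it and 55414 genes listed. The study asked how L-2-hydroxyglutarate (L-2HG), a metabolite that inhibits dioxygenases dependent on 2-oxoglutarate and that lactate dehydrogenase can make, affects gene expression in mouse round spermatids (RS), the haploid cells that follow meiosis. RS were sorted from testes of adult mice in which Stra8-iCre switches on a tdTomato reporter in the germ line, by tdTomato intensity and cell size, and the labels give the genotype of every sample as WT. Cells of all 3 groups were kept in culture for 24 h in medium with 0.15% DMSO. The vehicle group received solvents alone, the oxamate group received 24 mM oxamate, an inhibitor of lactate dehydrogenase, and the last group received 24 mM oxamate with 0.3 mM octyl-L-2HG, an ester that carries L-2HG into cells. Each group has 3 libraries, and these are called by their numbers in the labels, with 1 to 3 in the vehicle group, 4 to 6 in the oxamate group and 7 to 9 in the group with both compounds. The paper states that RS were incubated in triplicates, and the labels do not say whether the libraries of a group came from separate animals. The p-values therefore measure the spread between these libraries, which may be technical.

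The axoneme is a ring of doublet microtubules around a central pair. Outer and inner dynein arms on the doublets slide one doublet along the next, and radial spokes, the nexin-dynein regulatory complex and the central apparatus regulate the arms. Dynein arms are folded in the cytoplasm by dedicated assembly factors, tektins and other microtubule inner proteins strengthen the doublets from inside, and intraflagellar transport (IFT) particles carry cargo, with IFT-B leading outward and IFT-A leading back. Round spermatids transcribe these genes and begin to grow the tail.

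The libraries held between 32339533 and 39888396 counted reads, and the 99 genes took between 2.71% and 3.0% of them. Replicates differed by more than sampling noise, and chi-square over its degrees of freedom ran from 2.10 (oxamate libraries 5 and 6) to 23.3 (oxamate libraries 4 and 6). Over the 93 of the 99 genes whose normalized counts averaged 100 or more, the median absolute log2 difference was 0.0404 between oxamate libraries 5 and 6. It was 0.148 and 0.178 between oxamate library 4 and those libraries, and counts of calls are also given without library 4. Of 12 markers of round spermatids, such as Acrv1 and Spaca1, none was at 0, and their summed level was 2981 to 3194 CPM (counts scaled to a common library total) over the 9 libraries. The 9 markers of later spermatids summed to 4169 to 4225 CPM in vehicle, 3784 to 4011 in oxamate and 3296 to 3358 with both compounds, and the 10 meiotic markers to 712 to 888 over all libraries. Markers of spermatogonia summed to at most 8.57 CPM, of Sertoli cells to at most 0.627, of Leydig cells to at most 1.12 and of myoid cells to at most 3.24. The 7 blood and immune markers, 1 of which was at 0 in every library, summed to 4.06 to 4.90 in vehicle, 2.72 to 3.21 in oxamate and 2.27 to 3.14 with both compounds. The part of these shifts in the results was not tested, and in bulk RNA fewer cells of a type and less RNA per cell cannot be told apart.

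Most of the genes were well expressed. Levels between genes were compared as RPKM, reads per kilobase of transcript scaled to a common library total, in the 3 vehicle libraries. The median gene of the group stood at percentile 90.4 of the genes tested that have a known transcript length, and 50 of the 99 stood at or above percentile 90. The highest levels belonged to Cfap206, at the base of a radial spoke, with 708 ± 11.6 RPKM (SD, n = 3), to the dynein assembly factor Dnaaf1 with 684 ± 30.9, and to the spoke head gene Rsph1 with 666 ± 13.7. The tektins Tekt2, Tekt4 and Tekt1 followed with 576 ± 13.0, 524 ± 44.3 and 522 ± 21.1 RPKM, and the last 2 of these lay within their spread of each other. Intraflagellar transport genes reached 201 ± 2.86 RPKM for Ift43, 170 ± 11.0 for Ift140 and 104 ± 4.44 for Ift122, all of IFT-A, and 124 ± 9.30 for Ift172 and 121 ± 16.7 for Ift74, the highest of IFT-B.

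**Figure D1:**
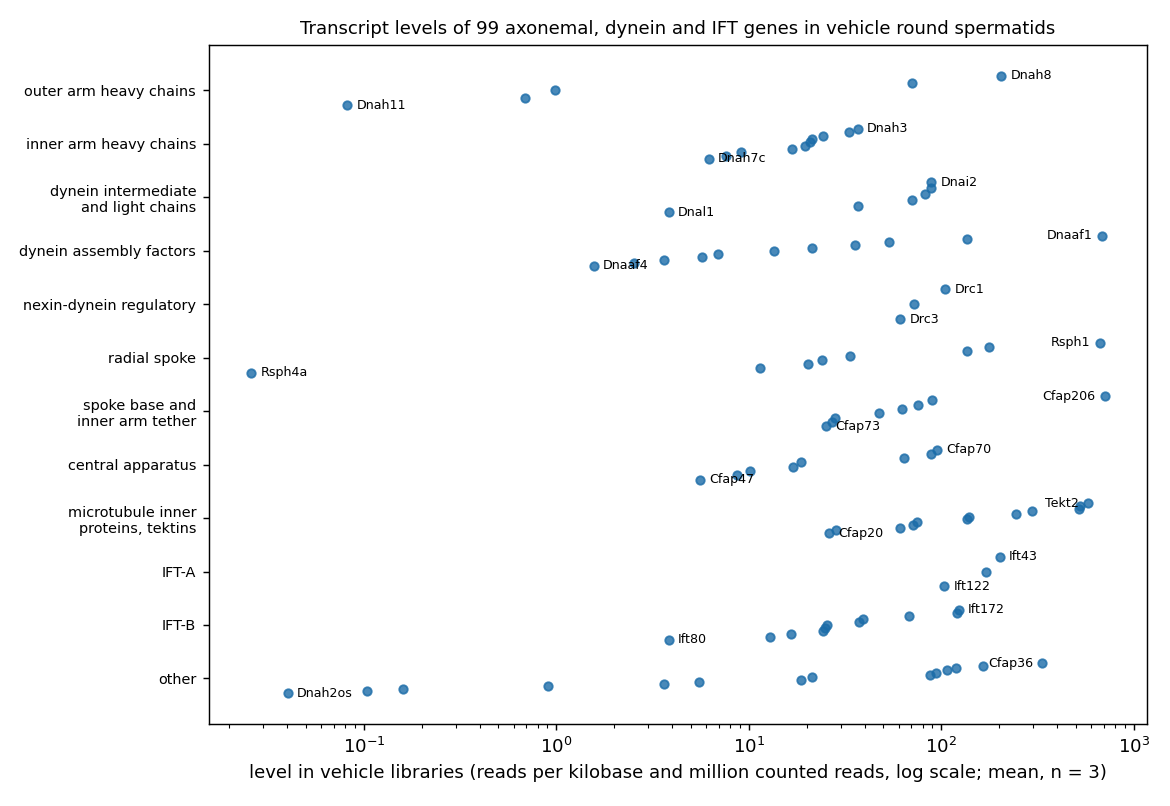
Mean level of each of the 99 genes in the 3 vehicle libraries, in RPKM on a log axis, grouped by role. The lowest and the highest gene of each role are named, and the outer arm heavy chains spread from 0.0821 for Dnah11 to 205 for Dnah8.

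Of the outer arm heavy chains 2 stood at a high level and 3 at a low one. Dnah8 and Dnah17, the heavy chains of the sperm outer arm, stood at 205 ± 16.0 and 70.6 ± 7.23 RPKM. Dnah9, Dnah5 and Dnah11, which serve motile cilia of the airway and other epithelia, stood at 0.986 ± 0.0349, 0.684 ± 0.105 and 0.0821 ± 0.0163 RPKM. The spoke heads were alike in this, with 176 ± 10.6 RPKM for Rsph6a, the form of sperm tails, and 0.0261 ± 0.00793 for Rsph4a, the form of motile cilia, whose 9 libraries held 0 to 8 raw reads. The normalized counts of 6 of the 99 genes averaged under 100, namely Dnah11, Rsph4a, Cfap97d2, Dnaaf6b and the antisense transcripts Dnah2os and Ift88os, and these names, like Dnah11 and Rsph4a below, fall outside the naming rule. Reads of the antisense transcripts cannot be told apart here from those of their host genes. Near-identical copies limit Dnah7a, Dnah7b and Dnah7c, which share 27.8%, 34.3% and 34.5% of their 75-base windows with one another, and Rsph3a and Rsph3b, which share 66.4% and 69.3%.

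The first comparison asked what inhibition of lactate dehydrogenase did to these transcripts. At an adjusted p under 0.05 in edgeR's quasi-likelihood test, with p-values adjusted over all genes tested by the method of Benjamini and Hochberg, 4 of the 99 genes (4.04%) rose with oxamate and 0 fell. Among all genes tested 3.97% rose and 1.22% fell. Among the 10715 genes whose normalized counts averaged 100 or more, called well-expressed genes here, the shares were 8.08% and 1.59%, so 4 of 99 was close to the first background and under the second. At an unadjusted p under 0.05 the edgeR counts were 17 higher and 0 lower, beside 2558 and 1790 of all 25128 genes tested and 1902 and 854 of the 10715 well-expressed ones, and DESeq2 called 4 and 0 at an adjusted p under 0.05. The median log2 fold change of the 99 genes was 0.03, against -0.01 over all genes tested and 0.01 among well-expressed genes. All oxamate libraries lay above all vehicle libraries in 10 of the 99 genes and below them in 1. The shares were 11.4% and 9.95% of all genes tested and 16.5% and 10.7% of well-expressed ones. Without oxamate library 4 there were 8 rises, while rises over all genes tested went from 997 to 1585. Across all 3 groups at once, 28 of the 99 genes differed by edgeR, beside 19.8% of all genes tested and 33.5% of well-expressed genes.

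Dnah10, an inner arm heavy chain, had 9918, 9196 and 11654 normalized counts in vehicle and 14174, 12607 and 13000 in oxamate. All oxamate libraries lay above all vehicle libraries, with a log2 fold change of 0.38 ± 0.08 (SE, n = 3 per group) and an adjusted p of 0.00368 by edgeR's quasi-likelihood test, and this call was the only one of the 4 kept in each of the 9 fits that left out 1 library. Dnaaf8, whose product takes part in holding dynein arms before they are loaded, had 2070, 2008 and 2314 in vehicle and 2673, 2668 and 2574 in oxamate. These groups did not overlap either, and the log2 fold change was 0.31 ± 0.07, with an adjusted p of 0.00698 by edgeR that became 0.0600 without vehicle library 2.

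Cfap91, which ties radial spokes to the doublet, had 6329, 6629 and 7154 in vehicle and 7441, 8211 and 8649 in oxamate, and its log2 fold change was 0.28 ± 0.07 with an adjusted p of 0.0246 by edgeR. The groups did not overlap, but the call was lost without vehicle library 1 or 2, oxamate library 5 or 6, or library 8 of the third group, with adjusted p between 0.0504 and 0.109 by edgeR. Dnah3, the inner arm heavy chain with the highest level at 36.8 ± 5.39 RPKM, had 14486, 14601 and 18870 in vehicle and 17924, 20245 and 21282 in oxamate. Vehicle library 3 overlapped the oxamate libraries, and the log2 fold change was 0.31 ± 0.08 with an adjusted p of 0.0277 by edgeR. Its call was lost in all fits that left out 1 library but those without vehicle library 3 or oxamate library 4, with adjusted p between 0.0522 and 0.182 by edgeR.

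The second comparison asked what octyl-L-2HG did on top of oxamate. It called 8 genes higher and 8 lower of the 99 by edgeR's quasi-likelihood test, beside 3.18% higher and 8.06% lower among all genes tested, and 7.06% and 12.7% among well-expressed genes. The shares of the 99 genes, 8.08% in each direction, were thus close to that of well-expressed genes for rises and below it for falls. At an unadjusted p under 0.05, 22 were higher and 10 lower, beside 2135 and 3799 of all 25128 genes tested and 1807 and 2132 of the 10715 well-expressed ones. The median log2 fold change was 0.06, against -0.04 over all genes tested and 0.01 among well-expressed genes. Libraries with both compounds all lay above oxamate in 35 genes and below it in 13, beside 13.4% and 15.3% of all genes tested and 24.4% and 18.3% of well-expressed ones. The split of calls depended on scaling, with 11 higher and 7 lower under DESeq2 size factors and 6 higher and 9 lower under total counts, and without oxamate library 4 it was 15 and 11, where calls over all genes tested went from 798 and 2025 to 1575 and 2842. This comparison shares its oxamate libraries with the first one.

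Rsph10b, a radial spoke gene, had 1768, 2003 and 2115 normalized counts in oxamate and 2720, 2626 and 2594 with both compounds. The groups were well apart, with a log2 fold change of 0.41 ± 0.08 and an adjusted p of 0.00169 by edgeR, and the vehicle libraries, at 1854, 2084 and 2252, lay with those of oxamate. The call held in each of the 9 fits that left out 1 library. Ift74, an IFT-B gene whose product helps bind tubulin, had 7098, 9286 and 9141 in oxamate and 10907, 10731 and 10347 with both compounds. Oxamate library 4 was the lowest, and the log2 fold change of 0.30 ± 0.09, with an adjusted p of 0.0355 by edgeR, became 0.19 with an adjusted p of 0.057 without it. Its call was also lost without vehicle library 3 or library 7, 8 or 9, with adjusted p from 0.0506 to 0.136 by edgeR, and for Ift74 under total counts and with the length offset, with adjusted p of 0.102 and 0.0802.

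Dnah14, an inner arm type heavy chain, rose by a log2 of 0.29 ± 0.07 (adjusted p = 0.0155 by edgeR), from 9489, 10463 and 11080 to 13470, 12469 and 12551 with both compounds. Cfap74, of the central apparatus, rose by 0.28 ± 0.07 (adjusted p = 0.0107 by edgeR), from 3873, 3784 and 3699 to 4621, 4837 and 4582. Neither overlapped between the groups. The call of Dnah14 was lost without oxamate library 5, library 7 or library 9, with adjusted p between 0.0512 and 0.0960 by edgeR, and that of Cfap74 without library 8, with an adjusted p of 0.0758. Cfap97 and Cfap36, for which no place in the axoneme was assigned, rose by 0.27 ± 0.07 and 0.26 ± 0.08 (adjusted p = 0.0124 and 0.043 by edgeR). Cfap97 went from 22999, 26754 and 26192 to 31686, 31115 and 30552, and its call was lost without library 7 or 8, with adjusted p of 0.0642 and 0.0574 by edgeR. Cfap36 was called, among the fits that left out 1 library, without vehicle library 1, vehicle library 2 or oxamate library 6 only, and it lost its call under total counts and with the length offset at adjusted p of 0.117 and 0.0535. Without oxamate library 4, where it read 16295, its log2 fold change was 0.16 with an adjusted p of 0.0696 by edgeR.

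Among the genes that fell, Tekt5, a tektin that is found in sperm tails, had 4365, 4431 and 4458 in oxamate and 3470, 3259 and 3041 with both compounds. The groups were well apart, at a log2 fold change of -0.47 ± 0.07 and an adjusted p of 0.000102 by edgeR. Dnah5 had 350, 438 and 431 in oxamate and 317, 281 and 274 with both compounds, which do not overlap, and changed by a log2 of -0.51 ± 0.11 with an adjusted p of 0.00563 by edgeR. The calls of Tekt5 and Dnah5 held in each of the 9 fits that left out 1 library.

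Dnaaf6, a factor for dynein arm assembly, had 156, 165 and 180 in oxamate and 131, 123 and 123 with both compounds, which differed by -0.43 ± 0.11 on the log2 scale with an adjusted p of 0.0145 by edgeR. Ift27, a small GTPase of IFT-B, had 932, 836 and 870 in oxamate and 715, 769 and 686 with both compounds, which differed by -0.31 ± 0.09 on the log2 scale with an adjusted p of 0.0216 by edgeR. Dnah9 had 488, 526 and 514 in oxamate and 404, 444 and 416 with both compounds, which differed by -0.30 ± 0.08 on the log2 scale with an adjusted p of 0.0214 by edgeR. In all 3 genes every library with both compounds lay below every oxamate library. Dnaaf9 went from 1619, 1601 and 1605 to 1348, 1373 and 1384, again without overlap, at -0.26 ± 0.07 and an adjusted p of 0.0211 by edgeR. These 4 calls were lost when some single libraries were left out, namely 6, 8 or 9 for Dnaaf6, 7 or 9 for Ift27, 5, 6, 7 or 9 for Dnah9 and 5, 7, 8 or 9 for Dnaaf9, with adjusted p between 0.0521 and 0.109 by edgeR.

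The third comparison set RS treated with both compounds against vehicle, and it shares its libraries with both comparisons above. Of the 99 genes 18 were higher and 7 lower by edgeR's quasi-likelihood test, beside 7.48% higher and 10.6% lower among all genes tested. Among well-expressed genes the shares were 16.0% and 13.6%, so the 18.2% of the 99 genes that rose was close to that background, and the 7.07% that fell was under it. All 3 libraries with both compounds lay above all vehicle libraries in 45 of the 99 genes and below them in 11, where 18.0% and 18.5% of all genes tested and 33.6% and 19.4% of well-expressed genes did so. The median log2 fold change was 0.10, against -0.05 over all genes tested and 0.03 among well-expressed genes. Under total counts, which moved the median of all genes tested to -0.11, the calls were 11 higher and 11 lower with a median of 0.04, and under DESeq2 size factors 24 higher and 7 lower. Without oxamate library 4 the calls were 38 higher and 8 lower, while those over all genes tested went from 1879 and 2655 to 2797 and 3385.

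**Figure D2:**
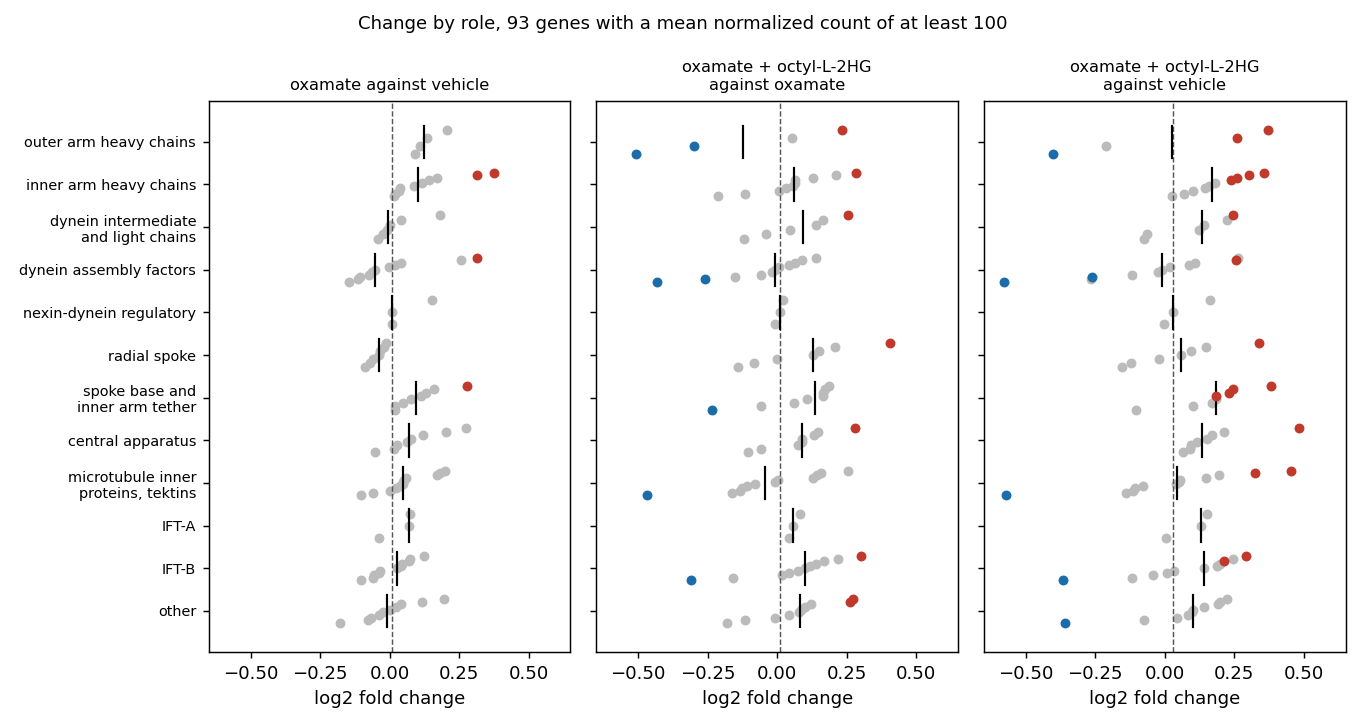
Log2 fold changes of the 93 well-expressed genes of the 99, by role, in the 3 comparisons, with genes past an adjusted p of 0.05 in red where higher and in blue where lower, the median of each role as a black bar and the median of the 10715 genes of that level as a dashed line. Against vehicle, oxamate alone gave 4 red and no blue points, and oxamate with octyl-L-2HG gave 18 red and 6 blue points.

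By role, 6 of the 15 dynein heavy chains rose against vehicle and 2 fell, but under total counts, and also with a length offset, 3 rose and 3 fell. The count of rises was 3 without library 2, 7 or 9, and 9 without library 4. The count of falls was 0 without library 3 or 8, 1 without library 7 or 9, and 3 without library 4. Of the 10 inner arm heavy chains 4 rose and none fell with both compounds, of the 8 genes at the spoke base and inner arm tether 4 rose and none fell, and of the 8 central apparatus genes, the 8 radial spoke genes and the 6 dynein intermediate and light chains 1 each rose and none fell. The 5 outer arm heavy chains had 2 rises and 2 falls, the 11 IFT-B genes 2 rises and 1 fall, the 12 microtubule inner proteins and tektins 2 rises and 1 fall, and the 11 assembly factors 1 rise and 2 falls. None of the 3 nexin-dynein regulatory genes and none of the 3 IFT-A genes passed the test, with an adjusted p of 0.0899 for Drc1, 0.995 for Drc7, 0.156 for Ift140 and 0.195 for Ift122 by edgeR. At an unadjusted p under 0.05, 1 gene in each of these 2 roles was higher and none lower. Of the 14 genes without a role in these lists 1 fell. These counts stand beside 7.48% higher and 10.6% lower over all genes tested and 16.0% and 13.6% over well-expressed genes, and they rest on few libraries. Of the 4 inner arm calls, 2 were left under total counts, with the length offset and without library 1, 2, 7 or 9. Of the 4 spoke base calls, 2 were left under total counts, with the length offset and without library 1, 2, 8 or 9, and Cfap91 alone without library 7.

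In the outer arm the 2 chains of sperm, Dnah8 and Dnah17, rose with both compounds against vehicle, while Dnah5 and Dnah11 fell and Dnah9 did not pass the test. The 2 chains of sperm were also those at a high level, and the part of level in this split was not tested. Dnah8 had 116955, 112355 and 132991 normalized counts in vehicle, 137503, 125271 and 133985 in oxamate and 164652, 155030 and 155786 with both compounds. The libraries with both compounds lay above the other 6, with a log2 fold change against vehicle of 0.37 ± 0.07 and an adjusted p of 0.000307 by edgeR, which held in each of the 9 fits that left out 1 library. Its rise over oxamate, 0.23 ± 0.06 with an adjusted p of 0.0215 by edgeR, was lost without oxamate library 5 or library 7, 8 or 9, with adjusted p from 0.0632 to 0.135. Dnah17 had 37590, 32870 and 41506 in vehicle, 48220, 40054 and 40308 in oxamate and 46534, 44699 and 44791 with both compounds. Against vehicle the last group was higher by a log2 of 0.26 ± 0.08 with an adjusted p of 0.0256 by edgeR, and it was not kept without vehicle library 2 or library 7, 8 or 9, or under total counts, with adjusted p from 0.0684 to 0.163.

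Dnah5, at 335, 351 and 448 in vehicle, had a log2 fold change of -0.40 ± 0.11 with both compounds, with an adjusted p of 0.0164 by edgeR. The call was lost without vehicle library 3, where the value was -0.26 with an adjusted p of 0.144, and without library 8 or 9, with adjusted p of 0.0745 and 0.0843 by edgeR. Dnah9, at 464, 475 and 501 in vehicle, changed by -0.21 ± 0.08 against vehicle, with an adjusted p of 0.0855 by edgeR, and it passed the test under total counts, with the length offset described further on and without oxamate library 4, where the value was again -0.21. Dnah11 had 40.9, 32.2 and 49.5 in vehicle, 39.1, 46.2 and 42.8 in oxamate and 18.0, 24.2 and 30.0 with both compounds, and its log2 fold changes of -0.83 ± 0.23 against oxamate and -0.77 ± 0.23 against vehicle had adjusted p of 0.0208 and 0.0209 by edgeR. Its raw counts were only 16 to 54 a library, and leaving out library 7 gave -0.66 and -0.60, with adjusted p of 0.121 and 0.124 by edgeR. The calls of Dnah11 were also lost without library 8, without oxamate library 5 in the first case and without vehicle library 3 in the second, with adjusted p from 0.0655 to 0.111. By DESeq2 the fall of Dnah11 against vehicle was not called.

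Within each library the ratio of Dnah8 to Dnah5 counts was 297 to 349 in vehicle, 286 to 393 in oxamate and 520 to 568 with both compounds. The ratio of Dnah17 to Dnah9 was 69.2 to 82.9, 76.2 to 98.9 and 101 to 115 in the same order. In both ratios the libraries with both compounds lay above the other 6. These pairs were chosen after their values were seen, so they are a description. A ratio inside a library does not depend on how libraries are scaled.

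**Figure D3:**
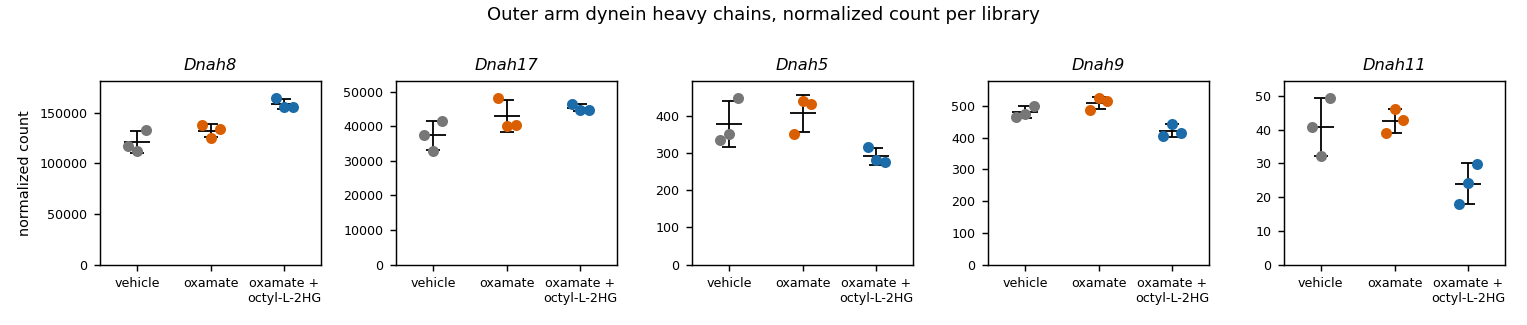
Normalized counts of the 5 outer arm dynein heavy chains in each library (points), with the mean and SD of the 3 libraries of each group (black lines), each panel on its own linear axis from 0. Dnah8 was highest with both compounds at 155030 to 164652, while Dnah5, Dnah9 and Dnah11 were lowest there at 274 to 317, 404 to 444 and 18.0 to 30.0.

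Of the other genes that rose against vehicle, Cfap74 had 3044, 3236 and 3617 in vehicle against 4621, 4837 and 4582 with both compounds, with oxamate in between. Its log2 fold change was 0.48 ± 0.07, the largest of the 18 rises, with an adjusted p of 3.57e-05 by edgeR. Cfap53, a microtubule inner protein, had 4051, 4818 and 4687 in vehicle, 4297, 5458 and 5772 in oxamate and 6957, 6317 and 5601 with both compounds. Oxamate library 6 overlapped the last group but vehicle did not, and the log2 fold change against vehicle was 0.45 ± 0.09 with an adjusted p of 0.00152 by edgeR.

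Cfap91, at 9667, 8650 and 8324 with both compounds, was above vehicle by a log2 of 0.38 ± 0.07, with an adjusted p of 0.000582 by edgeR. Dnah2, an inner arm heavy chain, had 8157, 7400 and 8871 in vehicle and 10684, 10374 and 10669 with both compounds. It rose by a log2 of 0.36 ± 0.07 with an adjusted p of 0.00162 by edgeR. Rsph10b stood 0.34 ± 0.08 above vehicle with an adjusted p of 0.00376 by edgeR. Cfap74, Cfap53, Cfap91, Dnah2 and Rsph10b were called against vehicle in each of the 9 fits that left out 1 library, as were Cfap20 and Ift52, named after their values were seen.

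Cfap206 had the highest mean RPKM in vehicle, within its spread of Dnaaf1. Its normalized counts were 55537, 56158 and 56448 in vehicle and 66416, 64264 and 63242 with both compounds. The groups did not overlap, yet the log2 fold change was small at 0.18 ± 0.06, with an adjusted p of 0.0268 by edgeR that was lost without any one of libraries 1, 2, 3, 7, 8 or 9, with adjusted p from 0.0551 to 0.104, and under total counts, with an adjusted p of 0.151. Some of the genes named for the most counts in their role did not pass the test in this comparison. Among these, the log2 fold changes were 0.11 ± 0.07 for Dnaaf1, 0.15 ± 0.07 for Rsph1, -0.02 ± 0.07 for Rsph6a, -0.11 ± 0.06 for Tekt2, -0.12 ± 0.08 for Tekt4, 0.12 ± 0.07 for Dnai2, 0.18 ± 0.08 for Dnah1, 0.18 ± 0.07 for Cfap43, 0.14 ± 0.07 for Ift172, 0.10 ± 0.07 for Cfap69 and 0.06 ± 0.07 for Cfap65, with adjusted p between 0.0861 and 0.910 by edgeR. Dnai3 and Cfap298 had -0.06 ± 0.06 and 0.09 ± 0.07, with adjusted p of 0.524 and 0.417 by edgeR.

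Of the genes that fell against vehicle, Tekt5 had 4983, 4451 and 4861 in vehicle and a log2 fold change of -0.57 ± 0.07, with an adjusted p of 4.09e-06 by edgeR. Dnaaf6 had 177, 191 and 186 in vehicle and a log2 fold change of -0.58 ± 0.11, with an adjusted p of 0.000673 by edgeR. Ift27 had 1023, 847 and 878 in vehicle and a log2 fold change of -0.36 ± 0.09, with an adjusted p of 0.00413 by edgeR. These 3 calls held in each of the 9 fits that left out 1 library, and the libraries with both compounds lay below all vehicle libraries in each gene.

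Cfap97d1, a gene needed for a stable sperm axoneme, had 2057, 2311 and 2102 in vehicle, 1519, 2093 and 2100 in oxamate and 1815, 1597 and 1711 with both compounds. Against vehicle it changed by a log2 of -0.36 ± 0.10 with an adjusted p of 0.0116 by edgeR, lost without vehicle library 2 or library 8 at adjusted p of 0.0737 and 0.0806. Dnaaf9 changed by -0.26 ± 0.07 from 1601, 1498 and 1753 in vehicle, with an adjusted p of 0.0122 by edgeR, and its call was lost without vehicle library 3 or library 7 or 8, with adjusted p between 0.0558 and 0.0840.

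**Figure D4:**
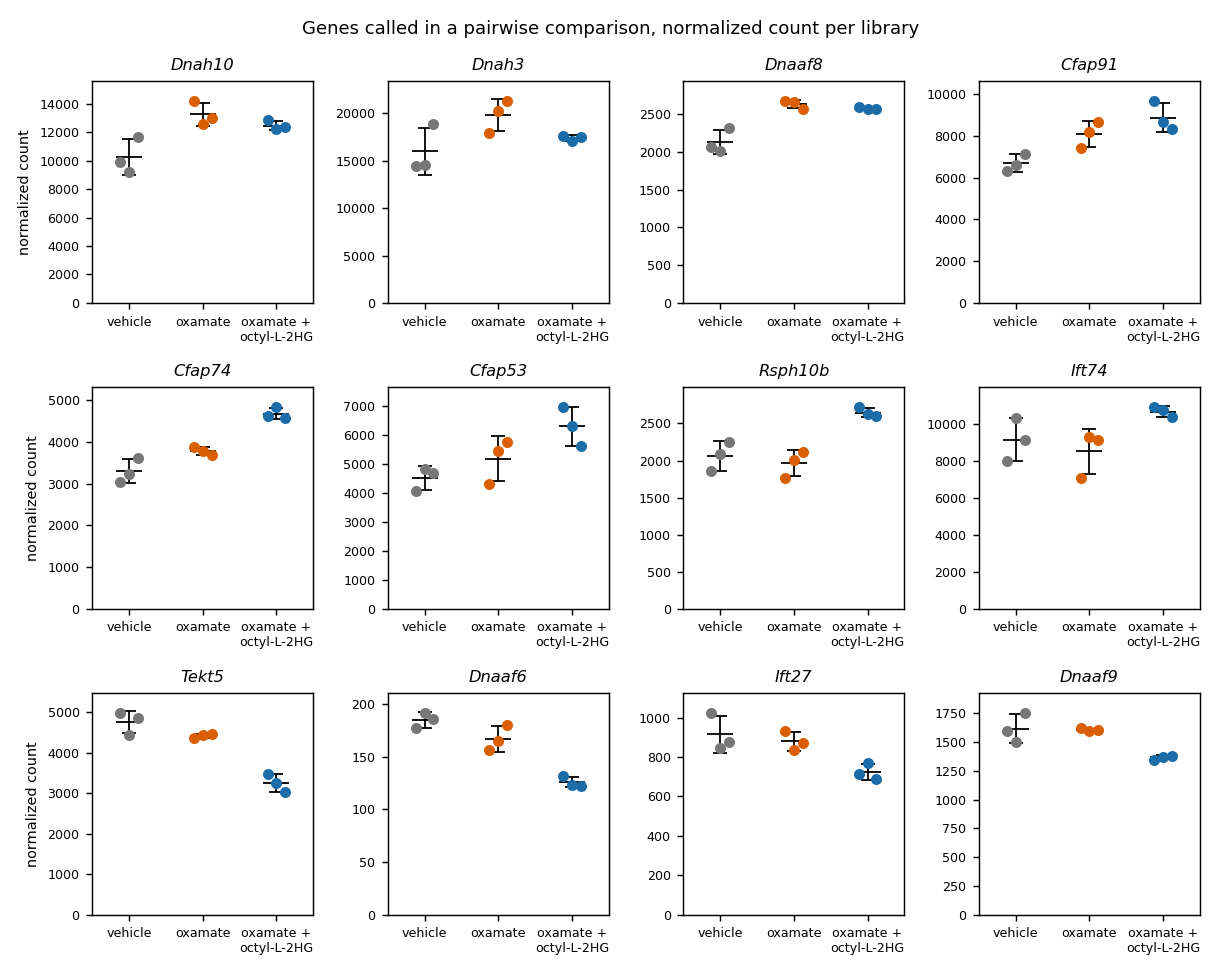
Normalized counts per library (points) with the mean and SD of each group of 3 (black lines) for 12 genes called in at least one pairwise comparison, each panel on its own linear axis from 0. The top row holds the 4 genes that oxamate raised, the second row genes whose mean was highest with both compounds, and the bottom row genes whose mean was lowest with both compounds, such as Tekt5 at 3041 to 3470.

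The 4 genes that rose with oxamate were then followed into the third group. With octyl-L-2HG added, Dnah10 stood at 12825, 12220 and 12354, Dnaaf8 at 2600, 2572 and 2572 and Dnah3 at 17621, 17087 and 17496. The change on addition of octyl-L-2HG was -0.12 ± 0.08 for Dnah10, -0.06 ± 0.07 for Dnaaf8, 0.11 ± 0.07 for Cfap91 and -0.21 ± 0.08 for Dnah3, with adjusted p of 0.391, 0.685, 0.409 and 0.109 by edgeR. Against vehicle, Dnah10 and Dnaaf8 were still higher by 0.26 ± 0.08 and 0.26 ± 0.07, with adjusted p of 0.0178 and 0.0109 by edgeR, and Dnah3 by 0.10 ± 0.08 with an adjusted p of 0.457. The call of Dnah10 against vehicle was lost under total counts and without vehicle library 1 or 2 or library 7, 8 or 9, and that of Dnaaf8 without vehicle library 2, with adjusted p between 0.0502 and 0.121 by edgeR.

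Transcript length moved with these results. Heavy chain transcripts are among the longest of the group, and the median length of the 99 genes was 2878 bases against 2485 for all genes tested. Under oxamate all 15 dynein heavy chains had a positive log2 fold change, with a median of 0.11, although only 2 passed the test, beside 48.0% positive among all genes tested and 52.4% among well-expressed ones. Without vehicle library 1, and also without oxamate library 6, 11 of the 15 were positive, with medians of 0.07 and 0.09, and without vehicle library 3 the median was 0.20. Under total counts, and also without vehicle library 2, 14 of the 15 were positive. Across the 93 well-expressed genes of the 99, Spearman's rho between transcript length and log2 fold change was 0.446 for oxamate against vehicle, 0.160 for both compounds against oxamate and 0.363 for both compounds against vehicle. Without the heavy chains, over 79 genes, rho was 0.339, 0.256 and 0.366. The relation was not particular to these genes, since rho over 10696 genes of that level was 0.337, 0.154 and 0.352. These are correlations across genes measured in the same libraries, and genes are not independent replicates.

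The length offset was a smooth trend, in each library, of the log ratio to the mean library on transcript length. It was fitted to these same libraries, so removal of the relation with length was built in and is no separate check. With this offset in the edgeR fit, the median of the 15 heavy chains under oxamate was 0.0048 and 8 of them were positive. The calls of Dnah3 and Cfap91 under oxamate were then lost, with adjusted p of 0.0758 and 0.0674 by edgeR, while Dnah10 at 0.28 and Dnaaf8 at 0.28 kept theirs, with adjusted p of 0.0344 and 0.0135. With both compounds against vehicle, the heavy chains had 3 rises and 3 falls with the offset, in place of 6 and 2, and their median moved from 0.16 to 0.0523. Dnah17, Dnah10 and Dnah6 lost their calls there, with adjusted p of 0.299, 0.185 and 0.170 by edgeR, while Dnah8, Dnah2 and Dnah14 kept theirs at 0.26, 0.24 and 0.19. Dnah9 was at -0.32 with the offset, with an adjusted p of 0.00766 by edgeR. Cfap97d1, with the shortest transcript of the 99 genes at 698 bases, changed by -0.18 with the offset in place of -0.36, with an adjusted p of 0.222.

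**Figure D5:**
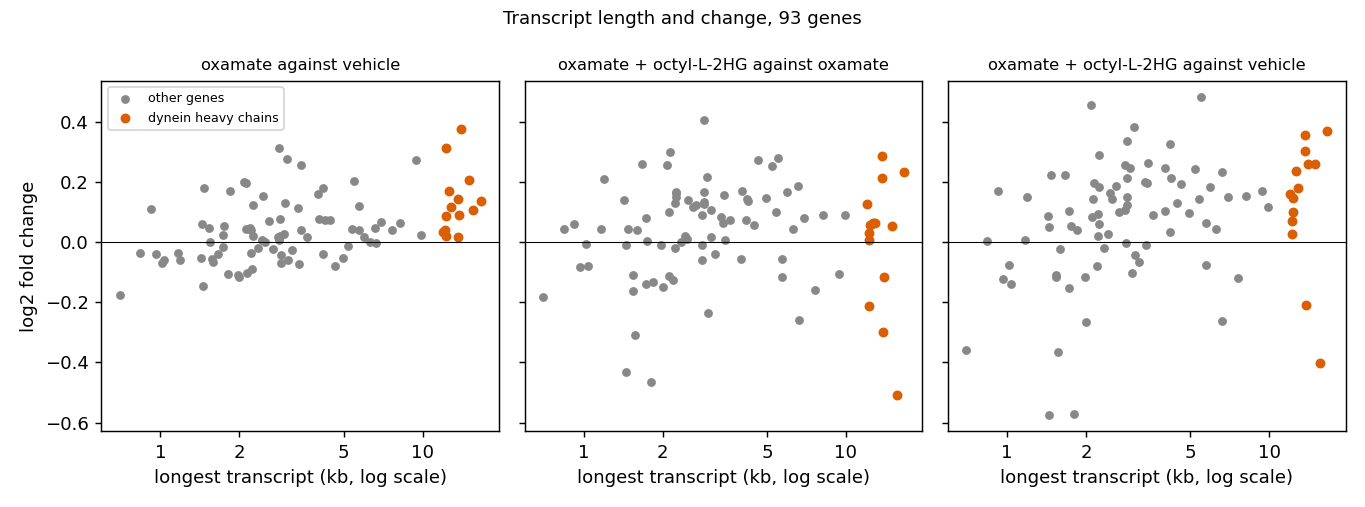
Log2 fold change against the length of the longest transcript (kb, log axis) for the 93 well-expressed genes of the 99, in the 3 comparisons, with dynein heavy chains in orange. Under oxamate the 14 heavy chains plotted lie above 0, where without vehicle library 1 or oxamate library 6 only 11 of all 15 did so and with the length offset 8, and Spearman's rho over the 93 genes was 0.446, 0.160 and 0.363 from left to right.

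Genes of the same machinery with other names gave shares of the same order. Of 109 such genes, listed by role as dynein subunits, assembly factors, axonemal proteins, and kinesin, BBSome and other IFT genes, 7 were higher and 1 lower with oxamate, 8 and 7 with octyl-L-2HG added, and 14 and 8 with both compounds against vehicle, by edgeR. In the last comparison the median log2 fold change was 0.04, and under total counts the calls were 6 higher and 15 lower. These counts stand beside the shares of all genes tested given above, and total counts gave 4 and 1 in the first comparison and 2 and 11 in the second, where DESeq2 gave 16 and 7. Leaving out 1 library gave 2 rises (without library 2) to 10 (without library 4) in the first comparison, 1 (without library 7 or 8) to 12 (without library 4) in the second and 6 (without library 7) to 28 (without library 4) in the third. Falls ranged from 0 to 3 in the first comparison. In the second they ranged from 3 (without library 7 or 8) to 12 (without library 4), and in the third from 1 (without library 7) to 14 (without library 4). Kif17, a kinesin-2 motor that is abundant in spermatids, had 19638, 17442 and 20171 in vehicle, 25866, 23415 and 23367 in oxamate and 21480, 20998 and 20181 with both compounds. Oxamate libraries lay above the other 6, at 0.35 ± 0.07 against vehicle (adjusted p = 0.0025 by edgeR), and the change on addition of octyl-L-2HG was -0.24 ± 0.07 (adjusted p = 0.0223 by edgeR), a fall that was lost without library 7, 8 or 9 at adjusted p from 0.0626 to 0.104. Kif3b, a subunit of the heterotrimeric kinesin that drives IFT outward, stood at 13465, 13651 and 14356 in vehicle and 19390, 18572 and 18722 with both compounds. That rise was 0.43 ± 0.06 with an adjusted p of 2.01e-05 by edgeR.

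Arl13b, a small GTPase of the ciliary membrane, and Bbs2, a BBSome subunit, rose with oxamate by 0.40 ± 0.08 and 0.31 ± 0.07, with adjusted p of 0.00227 and 0.00893 by edgeR, the second lost without vehicle library 2 at 0.0546. Bbip1, another BBSome subunit, fell with oxamate at -0.26 ± 0.08 and an adjusted p of 0.0494 by edgeR, a call that only held without vehicle library 3 or oxamate library 5 among the fits that left out 1 library. Bbs7 and Traf3ip1, an IFT-B component, rose with both compounds against vehicle by 0.42 ± 0.08 and 0.39 ± 0.07, with adjusted p of 0.000955 and 0.000217 by edgeR. Ccdc38, Mns1 and Ccdc39 rose on addition of octyl-L-2HG by 0.38 ± 0.07, 0.32 ± 0.09 and 0.31 ± 0.08, with adjusted p of 0.00167, 0.0263 and 0.021 by edgeR. The call of Mns1 was lost without library 4, 5, 7 or 8 and that of Ccdc39 without library 7, 8 or 9, with adjusted p from 0.0529 to 0.200, and both were lost under total counts, with adjusted p of 0.0760 and 0.0578. Ttc30a1 and Ttc30b, copies of an IFT-B subunit, fell on the same addition, at -0.40 ± 0.11 and -0.35 ± 0.08, and so did Lrguk at -0.35 ± 0.06, with adjusted p of 0.0241, 0.00762 and 0.00112 by edgeR. The call of Ttc30a1 was lost without any one of libraries 5 to 9 and that of Ttc30b without library 8, with adjusted p from 0.0518 to 0.148. Spata45 fell against vehicle with both compounds, at -0.26 ± 0.07 and an adjusted p of 0.0143 by edgeR, which was lost without library 1, 7 or 8 at adjusted p from 0.0590 to 0.112, and with the length offset, for its transcript of 443 bases, the value was -0.02.

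Of 13 regulators of ciliary and spermatid genes in the same fit, 4 rose and none fell with oxamate, 2 rose and 3 fell on addition of octyl-L-2HG, and 4 rose and 1 fell with both compounds against vehicle, beside the shares of all genes tested given above. Foxj1, the transcription factor that starts motile ciliogenesis, had 12201, 10430 and 11353 in vehicle, 17216, 14840 and 14668 in oxamate and 13551, 12770 and 11802 with both compounds. Every oxamate library lay above the other 6, with a log2 fold change of 0.46 ± 0.08 against vehicle and an adjusted p of 0.000641 by edgeR. Adding octyl-L-2HG changed it by -0.32 ± 0.08 with an adjusted p of 0.00803 by edgeR, which became -0.28 with an adjusted p of 0.0663 without library 9, and what remained against vehicle was 0.14 ± 0.08 with an adjusted p of 0.213. Taf7l, a TFIID subunit of male germ cells, was at 1078, 1169 and 1181 in vehicle, 1153, 1323 and 1319 in oxamate and 823, 794 and 794 with both compounds. It changed by -0.68 ± 0.08 on addition of octyl-L-2HG, with an adjusted p of 6.91e-06 by edgeR, and this call held in each of the 9 fits that left out 1 library.

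Mybl1, a regulator of meiotic genes, rose against vehicle with both compounds by 0.73 ± 0.08 (adjusted p = 1.5e-06 by edgeR), from 705, 821 and 798 to 1322, 1288 and 1312. Rfx7 rose by 0.60 ± 0.08 (adjusted p = 3.22e-05 by edgeR) and Jhy by 0.27 ± 0.07 (adjusted p = 0.00833 by edgeR). With oxamate alone Rfx7 rose by 0.32 ± 0.09 and Mybl1 by 0.30 ± 0.08, with adjusted p of 0.0275 and 0.0299 by edgeR, and these calls were lost without libraries 1, 2, 5, 6 or 8 for Rfx7 and without libraries 1, 3, 5, 6, 7, 8 or 9 for Mybl1, with adjusted p from 0.0517 to 0.145 by edgeR. With the length offset both oxamate calls were lost, at adjusted p of 0.118 for Rfx7 and 0.108 for Mybl1, and under total counts that of Mybl1 was lost at 0.0523. Sox30, a factor for spermatid genes, fell on addition of octyl-L-2HG, at -0.29 ± 0.08 and an adjusted p of 0.0239 by edgeR, lost without library 3, 5, 6, 8 or 9 at adjusted p from 0.0539 to 0.174. Rfx2, an RFX factor needed for spermatid tails and named after its values were seen, was at 0.25 ± 0.07 against vehicle with both compounds, with an adjusted p of 0.00959 by edgeR, and lost its call without vehicle library 2 or library 7 and with the length offset, with adjusted p of 0.0566, 0.0648 and 0.0628.

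RFX factors bind the X-box, an inverted pair of GTTGCC-like motifs up to 3 bases apart. In RefSeq promoters of build GRCm38.p6, taken from 250 bases before to 50 after the start of a gene, 80 of the 99 genes had an entry. An X-box stood in 14 of these 80 (17.5%) and in 1.75% of the 27025 genes of the promoter table, on either strand. The single motif GTTGCC, which can overlap an X-box, stood in 32 of 80 (40.0%) against 14.1% of all genes, and the CRE palindrome, the site of CREM, in 3 of 80 (3.75%) against 2.03%. A match describes these letters and shows no binding. The stretches below are of the 2 genes with an X-box that were called against vehicle, Cfap44 and Dnaaf6, and of Dnai2 and Tekt2, the genes with the most counts in their roles. Capitals mark the X-box, and each stretch ends before the gene's start.
Cfap44: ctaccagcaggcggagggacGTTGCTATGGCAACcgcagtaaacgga
Dnaaf6: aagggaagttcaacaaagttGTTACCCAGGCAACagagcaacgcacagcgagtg
Dnai2: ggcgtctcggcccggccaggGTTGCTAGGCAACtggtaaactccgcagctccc
Tekt2: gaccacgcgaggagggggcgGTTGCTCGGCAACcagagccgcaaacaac
They lie at chr16:44394752-44394798 on the plus strand, chr1:31222760-31222813 on the plus strand, chr11:114727366-114727418 on the plus strand and chr4:126325689-126325737 on the minus strand. The X-box begins 27, 59, 33 and 29 bases before the start, and for Tekt2 it begins 71 bases before another annotated start.

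With oxamate none of the 14 genes with an X-box passed the test by edgeR, and at an unadjusted p under 0.05 the count was also 0. Of the 66 genes with a promoter entry and no X-box 2 rose and none fell, and 13 were higher at an unadjusted p under 0.05, beside 3.97% higher and 1.22% lower over all genes tested. On addition of octyl-L-2HG none of the 14 genes rose and 1 fell. Of their log2 fold changes 12 were positive, and the median was 0.12. The 66 genes without an X-box had 6 rises, 7 falls, 42 positive values and a median of 0.04. Over all genes tested 3.18% rose, 8.06% fell and 45.5% were positive, and among well-expressed genes 52.2% were positive. With both compounds against vehicle 1 of the 14 rose and 1 fell, 11 of their log2 fold changes were positive and the median was 0.11. Of the 66 others 14 rose and 6 fell, 45 were positive and the median was 0.08. Over all genes tested 7.48% rose, 10.6% fell and 45.0% were positive, and among well-expressed genes 55.9% were positive. Cfap44, which sits at the spoke base, rose by 0.23 ± 0.07 with an adjusted p of 0.0319 by edgeR, from 5598, 6354 and 6869 in vehicle to 7897, 7326 and 7229, and lost its call without vehicle library 1 or 2 or library 7, 8 or 9, with adjusted p from 0.0634 to 0.177, and also under total counts and with the length offset, with adjusted p of 0.128 and 0.241. Dnaaf6 fell, as given above, and Dnai2 and Tekt2 did not pass the test.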

How the data were processed

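Poly(A) RNA of 9 RS samples was sequenced from stranded libraries. The authors trimmed the reads with cutadapt, ran TopHat on the mouse genome (the submitters' processing notes list GRCm39 and, unexplained, WBcel235) and deposited one raw count per gene and library from htseq-count, in which the setting for strand is not given in the sources used here. They also deposited a normalized signal, the count divided by one DESeq2 size factor per library, which is the normalized count printed here. The labels and the methods name different sequencers. Of the 55414 genes listed, 6250 had no value in the table and were left out, and no column of values was unused.

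Groups came from the labels. Genes were tested (25128, with a summed count of at least 10) in edgeR 4.0.16 on R 4.3.3 (TMM, robust quasi-likelihood, all 9 libraries in one fit, group as the only term), with Benjamini-Hochberg adjustment over all of them and a threshold of 0.05. This test was checked on simulated counts. Libraries held at least 32339533 counted reads, and low counts limit the 6 genes with a mean under 100. RPKM used the longest transcript of another annotation (GENCODE M21), matched for 99.6% of the genes tested. Alternatives were DESeq2 1.42.0, other scalings, other filters, only the groups compared, a length offset, a threshold of 0.01 and each library left out.

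The members, roles and other lists were chosen with earlier results of these data known. Genes were named by rule, as the 2 of each role with the most counts and up to 6 rises and 6 falls a comparison among called genes with a mean of at least 100, and of the genes outside the name pattern and of the regulators up to 3 each. Other names were chosen after their values were seen.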

Additional observations from a re-analysis of the deposited data

How the results depend on the processing

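No called value of a gene named by rule changed sign under the alternatives run for it, and the sign of other called genes was not tabulated. No paired analysis was possible because replicate numbers run from 1 to 9 and no number is shared between groups. For oxamate against vehicle, the 4 rises became 2 when only the compared groups were fitted, 2 with the length offset and 2 at an adjusted p under 0.01, the median of 0.0278 became -0.01 with the length offset, and leaving out 1 library gave 1 to 8 rises. Rises over all genes fitted went from 997 to 562 with only the compared groups and to 746 with the length offset. For both compounds against oxamate, the 8 rises and 8 falls became 16 rises by DESeq2, 18 rises and 5 falls with no filter on low counts, 13 rises with edgeR's own filter, and 1 rise and 2 falls at an adjusted p under 0.01. The median of 0.0593 there became 0.0857 with DESeq2 size factors, 0.0856 by DESeq2, 0.0156 with total counts, 0.1043 with no filter and 0.0818 with only the compared groups. Leaving out 1 library gave 2 to 15 rises, 3 to 11 falls and medians of 0.0358 to 0.07. Over all genes fitted, the 798 rises and 2025 falls became 1258 and 1627 by DESeq2, and 1429 and 1797 with no filter. With edgeR's own filter they became 1167 and 1938. For both compounds against vehicle, the 18 rises and 7 falls became 11 and 11 with total counts (median 0.0402), 37 rises with no filter (median 0.1484), 39 rises with only the compared groups, and 10 rises and 3 falls at an adjusted p under 0.01. The length offset gave a median of 0.068, and leaving out 1 library gave 10 to 38 rises, 3 to 8 falls and medians of 0.0839 to 0.1435. Over all genes fitted, the 1879 rises and 2655 falls became 1231 and 3367 with total counts, and 2690 and 2421 with no filter. With only the compared groups they became 2848 and 3062. Any difference among the 3 groups was called for 28 of the 99 genes, 16 at an adjusted p under 0.01, and 12 to 50 when 1 library was left out, lowest without library 7 and highest without oxamate library 4. The cause of these changes was not tested. Of the calls of the 99 genes, 1 of 4, 3 of 16 and 11 of 25 in the 3 comparisons held without any 1 library. This share was not counted over all genes tested. The smallest change called was 0.18 on the log2 scale, for Cfap206, and genes such as Dnah11 and Rsph4a are limited by low counts.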
